A study of Mus musculus with 16 samples.

Results

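The 10 genes described here encode carriers of amino acids and small peptides in the apical or the basolateral membrane of intestinal epithelial cells. They were chosen by name for this role and are Slc6a14, Slc6a19, Slc6a20a, Slc7a9, Slc3a1, Slc15a1, Slc1a1 and Slc36a1 (apical side) and Slc7a7 and Slc7a8 (basolateral side). All 10 are among the 21965 genes of the count table and among the 13811 genes that passed the filter on low counts. RNA from the terminal ileum of 16 male C57BL/6 mice, aged 8 to 10 weeks at the start, was sequenced from stranded, poly(A)-selected libraries, each from a single mouse. The pair-fed (PF) mice were 4 WT and 4 fat-1 mice, and the ethanol-fed (EtOH) mice 3 WT and 5 fat-1 mice. The fat-1 mice (Fat1+/-) carried 1 copy of a C. elegans fatty acid desaturase gene in all tissues, and the WT mice were their littermates. Every mouse was kept on a Lieber-DeCarli liquid diet for 6 weeks. For EtOH mice, ethanol was raised stepwise to 6% (v/v), which was held for 3 weeks, and for PF mice maltose dextrin replaced its calories.

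Dietary protein reaches the enterocyte as free amino acids and as di- and tripeptides. Carriers of the brush border take these up with sodium, protons or in exchange for other amino acids, and carriers of the basolateral membrane pass them on to the blood. Several work only as heteromers: Slc7a9 needs the heavy chain Slc3a1, and Slc7a7 and Slc7a8 need the heavy chain Slc3a2. Slc6a14 is known as a broad carrier of neutral and cationic amino acids that is low in the normal small intestine and higher in the distal gut.

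Levels are given as CPM, the reads of a gene scaled to a common library size after trimmed mean of M-values (TMM) scaling, and per kb of exon (CPM per kb) where genes are compared with each other. Total counts ran from 8422645 to 11438539 per mouse, and a count of 3 stood for 0.246 to 0.421 CPM. Some libraries went against their tissue label or stood apart. The bile acid carrier Slc10a2 and the bile acid binding protein Fabp6, which define the terminal ileum, were at 7.58 and 26.1 CPM in fat-1 PF replicate 2 and at 3.56 and 3.31 CPM in fat-1 PF replicate 4. In the other 14 mice Slc10a2 was between 394 and 1382 CPM. Fabp6 was at 118 and 586 CPM in fat-1 EtOH replicates 3 and 4 and between 845 and 4906 CPM in the remaining 12. The sum of 10 large intestine genes, Car1 among them, was 12270 and 13260 CPM in fat-1 EtOH replicates 3 and 4, was 5220 CPM in WT EtOH replicate 2, and lay between 284 and 554 CPM in the other mice. In that list Hoxd12 and Hoxd13 had no count in any mouse but fat-1 EtOH replicate 4, where each was at 0.0892 CPM. The sum of 11 proximal small intestine genes was between 2422 and 62270 CPM in PF mice and between 55.8 and 762 CPM in EtOH mice. That of 6 smooth muscle genes was between 906 and 1434 CPM in PF mice and between 1859 and 4042 CPM in EtOH mice. The groups did not overlap in either sum. The sum of 7 epithelial genes was 9188 and 9258 CPM in fat-1 EtOH replicates 3 and 4 and 10360 to 15750 CPM elsewhere, and that of 6 B-cell genes was 486 CPM in fat-1 EtOH replicate 5 and at most 97.9 CPM elsewhere. That of 4 T-cell genes was 107 CPM in fat-1 EtOH replicate 5 and at most 44.8 CPM elsewhere. The part of these differences in the results on the transporters was not tested. The libraries are numbered 1 to 8 in PF mice and 9 to 16 in EtOH mice, so that their order and the diet cannot be told apart. In bulk tissue, fewer cells of a type and less RNA per cell cannot be told apart either. A fit without fat-1 PF replicates 2 and 4 and fat-1 EtOH replicates 3 and 4 (12 mice) was chosen after seeing the data and is given beside the results as the fit of 12 mice.

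**Figure D1:**
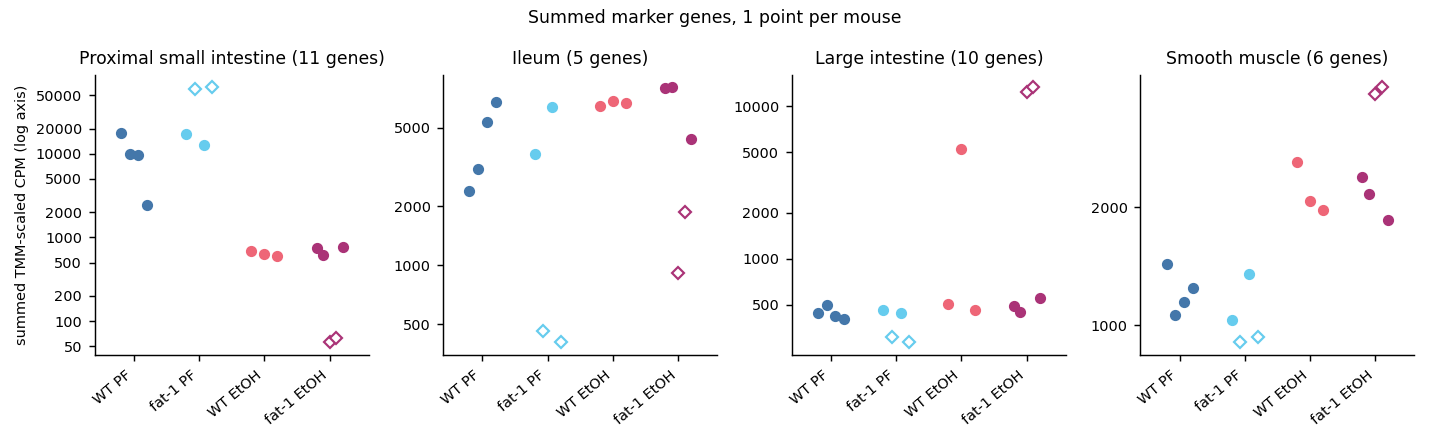
Summed CPM of marker genes of the proximal small intestine, the ileum, the large intestine and smooth muscle (log axes) in each mouse, by group; open diamonds are fat-1 PF replicates 2 and 4 and fat-1 EtOH replicates 3 and 4, filled circles the other mice. The proximal sums of all PF mice (2422 CPM or more) lie above those of all EtOH mice (762 CPM or less), and the large intestine sum is 5220, 12270 and 13260 CPM in 3 EtOH mice.

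The stretches of 250 bases before the RefSeq start sites (GRCm38.p6, written 5′ to 3′ on the strand of the gene) are shown for the 3 transporters called with EtOH below, and for the subunit pair Slc7a9 and Slc3a1. Capitals mark matches, on either strand, to a motif of each of 4 factor families of the gut epithelium. The letters searched were AGATAA for factors of the GATA family, the letters CAATAAA for those of the CDX family, the letters GTTAAT for HNF1 and the letters AAAGTCC for HNF4.
Slc6a14 (chrX:21714650-21714899, + strand): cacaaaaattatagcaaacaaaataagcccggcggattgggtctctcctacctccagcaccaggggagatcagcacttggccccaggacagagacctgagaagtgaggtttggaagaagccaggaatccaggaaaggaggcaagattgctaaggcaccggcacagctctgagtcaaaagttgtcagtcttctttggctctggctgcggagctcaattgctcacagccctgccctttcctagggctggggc
Slc36a1 (chr11:55204090-55204339, + strand): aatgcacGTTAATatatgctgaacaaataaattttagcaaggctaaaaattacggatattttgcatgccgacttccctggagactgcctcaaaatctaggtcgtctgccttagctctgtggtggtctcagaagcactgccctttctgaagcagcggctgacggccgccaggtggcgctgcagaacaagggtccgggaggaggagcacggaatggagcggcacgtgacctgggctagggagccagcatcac
Slc7a8 (chr14:54781887-54782136, - strand): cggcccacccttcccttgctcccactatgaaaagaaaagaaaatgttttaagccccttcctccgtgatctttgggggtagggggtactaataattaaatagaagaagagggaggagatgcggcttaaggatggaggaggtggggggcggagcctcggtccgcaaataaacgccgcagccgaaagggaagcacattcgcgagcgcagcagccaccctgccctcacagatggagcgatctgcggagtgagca
Slc7a9 (chr7:35448842-35449091, + strand): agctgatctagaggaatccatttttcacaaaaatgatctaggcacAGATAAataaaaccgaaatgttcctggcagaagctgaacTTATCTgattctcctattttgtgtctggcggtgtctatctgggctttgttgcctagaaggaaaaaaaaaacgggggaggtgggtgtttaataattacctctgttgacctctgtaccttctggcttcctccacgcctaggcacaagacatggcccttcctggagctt
Slc3a1 (chr17:85028097-85028346, + strand): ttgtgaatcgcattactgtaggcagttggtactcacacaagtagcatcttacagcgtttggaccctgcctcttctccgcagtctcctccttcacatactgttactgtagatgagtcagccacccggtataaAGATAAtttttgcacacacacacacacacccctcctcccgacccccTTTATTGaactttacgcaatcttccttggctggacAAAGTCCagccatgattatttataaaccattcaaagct
The window of Slc3a1, which runs from 250 bases before to 50 after the start site, held all 4 motifs, with GATA, CDX and HNF4 letters beginning 119, 73 and 38 bases before the start site and HNF1 letters after it, outside the stretch shown. That of Slc7a9 shown here held 2 GATA matches, beginning 205 and 166 bases before the start site. Slc36a1 held 1 HNF1 match, as did Slc6a20a, and of 5 windows of Slc7a7 2 overlapping ones held the same GATA letters and 1 held HNF1 letters. The windows of Slc6a14, Slc6a19, Slc15a1, Slc1a1 and Slc7a8 held none of the 4. Of all 32851 windows, 11.2% held the GATA, 4.60% the CDX, 7.10% the HNF1 and 4.21% the HNF4 letters. The matches are a description of letters only.

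Per length of exon, 5 transporters made up most of the signal in PF mice. In WT PF mice the order was Slc6a19 (297 CPM per kb ± 48.4, SD, n = 4), Slc3a1 (285 ± 20.3), Slc7a9 (188 ± 6.36), Slc15a1 (143 ± 32.5), Slc7a7 (122 ± 6.33), Slc6a20a (52.1 ± 10.5), Slc7a8 (39.4 ± 15.4), Slc36a1 (31.6 ± 21.5), Slc1a1 (20.7 ± 3.61) and Slc6a14 (13.1 ± 18.2). Slc6a19 was above Slc3a1 in only 2 of the 4 mice, and Slc36a1 above Slc1a1 in 2 of 4, so that these neighbours did not differ beyond their spread. Slc3a1 was above Slc7a9, Slc7a9 above Slc15a1 and Slc7a7 above Slc6a20a in 4 of 4 mice. The sums over the 10 genes ran from 896 to 1310 CPM per kb in the 8 PF mice and from 842 to 1147 CPM per kb in 6 of the 8 EtOH mice. They were 335 and 314 CPM per kb in fat-1 EtOH replicates 3 and 4. In those 2 mice Slc6a14 alone made up 69.8% and 70.3% of the sum, whereas Slc6a19 or Slc3a1 led in the other 14 mice. Slc6a14 was the lowest of the 10 in 7 of the 8 PF mice and next to the lowest in WT PF replicate 1, where it made up 3.36% of the sum. It ranked between 4 and 7 in the 6 EtOH mice other than replicates 3 and 4 of fat-1 EtOH.

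**Figure D2:**
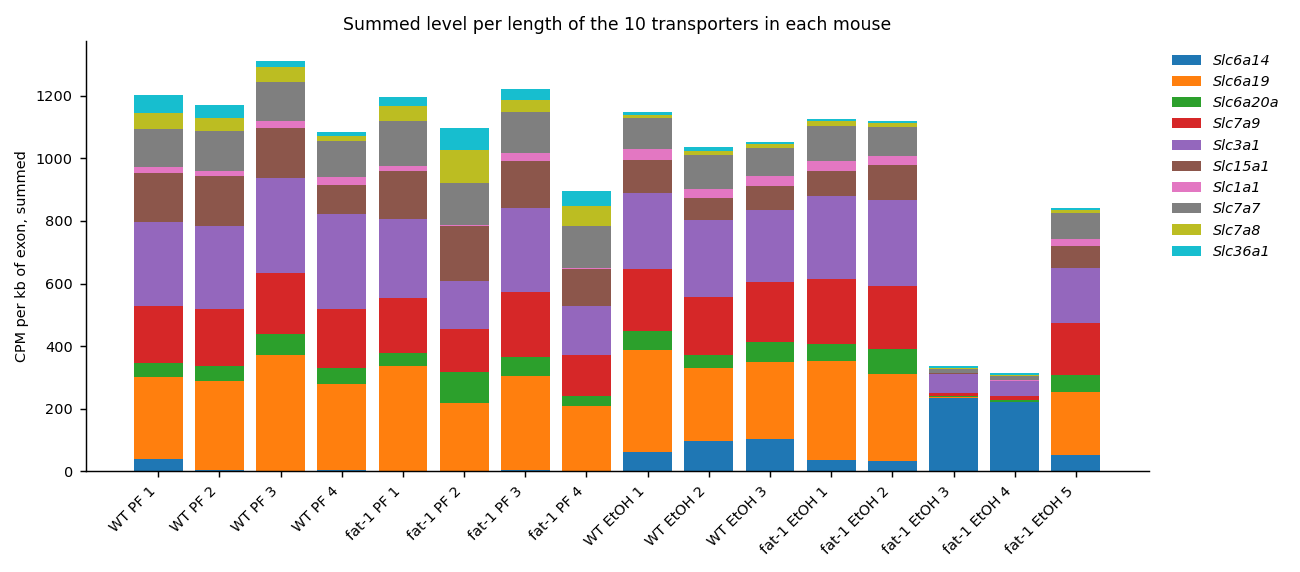
Level per length of the 10 transporters in each of the 16 mice, as stacked bars of CPM per kb of exon. The sum falls from at least 842 CPM per kb in 14 mice to 335 and 314 CPM per kb in fat-1 EtOH replicates 3 and 4, where Slc6a14 fills most of the bar.

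EtOH against PF was compared in each genotype and averaged over both, which asks how the diet changed the transporters and whether fat-1 altered that change. In fat-1 mice, 3 of the 10 transporters were called by edgeR (adjusted p of 0.05 or less): Slc6a14 rose and Slc7a8 and Slc36a1 fell. The background was 37.4% of the 13811 genes tested, 18.7% higher and 18.8% lower. The share of the transporters was thus near that of all genes. None was called in WT mice, where 0.0796% of genes were called, or 11 (0.00724% higher and 0.0724% lower), and 1953 had an unadjusted p under 0.05. The fit takes the spread of a gene from all groups together, so that the SE in WT mice also holds the spread among fat-1 mice. Averaged over genotypes, Slc6a14, Slc7a8 and Slc36a1 were called, against 35.9% of genes (18.3% higher and 17.6% lower). None of the 10 was called for the interaction of genotype and diet, as for all genes (0%, with 1141 genes at an unadjusted p under 0.05), so that no difference in response between the genotypes was detected. The median log2 fold change of the 10 was -0.65 in fat-1 mice, against 0.05 over all genes tested, and -0.19 in WT mice, against 0.01. With 12 mice it was -0.18 in both, against 0.04 and 0.02 over all genes. The comparisons within genotypes and their average share mice and are not independent of each other.

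Slc6a14 (ENSMUSG00000031089) lies on the + strand at chrX:21714896-21742355 (GRCm38). It was at 139, 18.7, 7.89 and 15.0 CPM in WT PF mice and at 1.70, 0.702, 10.9 and 1.84 CPM in fat-1 PF mice, and at 208, 327 and 357 CPM in WT EtOH mice and at 120.5, 109, 803, 757 and 182 CPM in fat-1 EtOH mice. The EtOH mice of each genotype lay above all PF mice of that genotype, although WT PF replicate 1 lay above 2 fat-1 EtOH mice. By edgeR's quasi-likelihood test the log2 fold change was 6.72 (95% interval 4.36 to 9.07, adjusted p = 0.00109) in fat-1 mice, 2.72 (SE 1.02, adjusted p = 0.262) in WT mice and 4.72 (SE 0.78, adjusted p = 0.000731) averaged. The difference between the genotypes was 3.99 (SE 1.47, adjusted p = 0.595), was 2.29 without WT PF replicate 1 and was 1.78 (SE 1.53) with 12 mice. The highest levels, in fat-1 EtOH replicates 3 and 4, were in the mice with the highest sums of large intestine genes, whereas WT EtOH replicate 2, whose sum was 5220 CPM, lay between the other WT EtOH mice. In the fit of 12 mice the value in fat-1 mice was 4.51 (SE 1.36) and was no longer called (adjusted p = 0.0583), and averaged it was 3.62 (SE 0.82, adjusted p = 0.0116). Without fat-1 PF replicate 3, the highest of its group, the fat-1 value was 8.09. Without WT PF replicate 1 the WT value was 4.43 and the average 5.58.

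Slc36a1 (ENSMUSG00000020261) lies on the + strand at chr11:55204350-55236330 (GRCm38). Slc36a1, a proton-coupled carrier of small neutral amino acids, was at 328, 220.4, 101 and 60.4 CPM in WT PF mice and at 166, 389, 207 and 272 CPM in fat-1 PF mice. In EtOH mice it was at 40.7, 65.8 and 35.4 CPM (WT) and at 37.8, 30.6, 35.8, 37.6 and 34.2 CPM (fat-1). The fat-1 groups did not overlap, and in WT mice WT EtOH replicate 2 lay just above WT PF replicate 4. The log2 fold change by edgeR was -2.88 (SE 0.41, adjusted p = 0.000328) in fat-1 mice and -2.39 (SE 0.32, adjusted p = 0.000279) averaged. In WT mice it was -1.91 (SE 0.47, adjusted p = 0.156), and without WT PF replicate 4 it was -2.195, with an adjusted p of 0.0275. Slc36a1 was the 1 transporter apart from Slc6a14 that was not lower in fat-1 EtOH replicates 3 and 4 than in the other 3 mice of the group. In the fit of 12 mice the fat-1 value was -2.43 (SE 0.58, adjusted p = 0.0284). Among WT PF mice the levels fell in the same order as the sums of proximal small intestine genes, which were 17670, 9858, 9614 and 2422 CPM in replicates 1 to 4. Among fat-1 PF mice the order was not the same, with sums of 17170, 59630, 12620 and 62270 CPM in replicates 1 to 4.

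Slc7a8 (ENSMUSG00000022180) lies on the - strand at chr14:54722209-54781946 (GRCm38). Slc7a8, a basolateral exchanger of neutral amino acids, was at 257, 208, 238 and 85.6 CPM in WT PF mice and at 246, 533, 194 and 322 CPM in fat-1 PF mice. It was at 57.1, 64.2 and 64.5 CPM in WT EtOH mice and at 74.8, 62.1, 7.87, 10.7 and 60.1 CPM in fat-1 EtOH mice. No EtOH mouse reached the level of any PF mouse, and the 2 fat-1 PF mice with the least Slc10a2 had the highest levels. The log2 fold change by edgeR was -2.91 (SE 0.58, adjusted p = 0.00218) in fat-1 mice, -1.67 (SE 0.67, adjusted p = 0.293) in WT mice and -2.29 (SE 0.46, adjusted p = 0.00209) averaged. In the fit of 12 mice it was called in both genotypes, at -1.73 (SE 0.34, adjusted p = 0.0153) in fat-1 mice and -1.66 (SE 0.31, adjusted p = 0.0181) in WT mice.

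**Figure D3:**
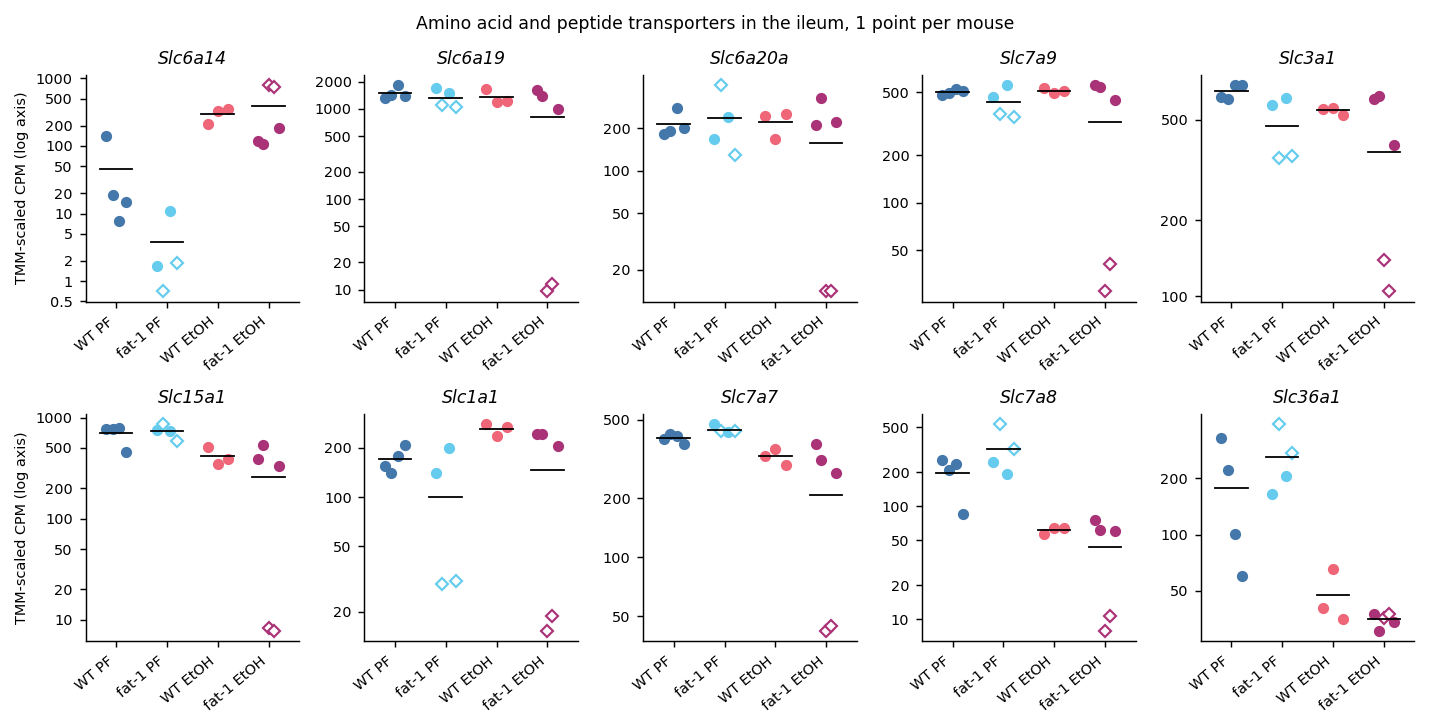
CPM of each of the 10 transporters (log axes, a scale of its own per gene) in each mouse, by group; lines are group means, open diamonds are fat-1 PF replicates 2 and 4 and fat-1 EtOH replicates 3 and 4. Slc6a14 is between 109 and 803 CPM in EtOH mice and at most 139 CPM in PF mice, Slc7a8 is lower in every EtOH mouse than in any PF mouse, and 8 of the 10 genes are lowest in fat-1 EtOH replicates 3 and 4.

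The other apical transporters were not called in the fit of 16 mice. Slc6a19, the main sodium-coupled carrier of neutral amino acids, was at 1303, 1415, 1842 and 1382 CPM in WT PF mice and at 1685, 1096, 1515 and 1039 CPM in fat-1 PF mice. It was at 1644, 1178 and 1232 CPM in WT EtOH mice and at 1596, 1400, 9.51, 11.42 and 1006 CPM in fat-1 EtOH mice. Apart from fat-1 EtOH replicates 3 and 4, whose levels were near 10 CPM, all mice lay in 1 range. The log2 fold change was -0.73 (SE 0.98, edgeR adjusted p = 0.574) in fat-1 mice and -0.25 (SE 0.22, adjusted p = 0.443) there in the fit of 12 mice.

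Slc6a20a, a carrier of proline and other imino acids, had medians of 196 CPM in the 8 PF mice and 217 CPM in the 8 EtOH mice, with a lowest level of 14.01 CPM in fat-1 EtOH replicate 4 and of 14.2 CPM in replicate 3. Its log2 fold change averaged over genotypes was -0.26 (SE 0.54, edgeR adjusted p = 0.733) in 16 mice and 0.20 (SE 0.16, adjusted p = 0.375) in 12. Of its 75-base windows of exon sequence, 22.2% also occur in another gene, Slc6a20b being 1 of them, so that reads may be split between the copies. Slc6a20b was at 0 to 5.36 CPM in all mice.

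Slc7a9 and its heavy chain Slc3a1 form the exchanger of cystine and cationic amino acids of the brush border. Slc7a9 lay in a narrow range in WT mice, at 484, 494, 523 and 508 CPM with PF and 530, 497 and 514 CPM with EtOH. In fat-1 mice it was at 467, 362, 558 and 350 CPM with PF and at 557, 542, 27.3, 41.0 and 447 CPM with EtOH. Its log2 fold change in the fit of 12 mice was 0.02 in fat-1 mice (95% interval -0.23 to 0.28) and 0.04 in WT mice (-0.17 to 0.25). Slc3a1 was at 614, 603, 688 and 688 CPM in WT PF mice and at 553, 559 and 522 CPM in WT EtOH mice, without overlap, but was not called (log2 fold change -0.25, SE 0.48, edgeR adjusted p = 0.851). That SE rests on the spread in all groups. In the fit of 12 mice the WT value was -0.24 (SE 0.15, edgeR adjusted p = 0.346), also not called. In fat-1 mice Slc3a1 was at 574, 352, 611 and 358 CPM with PF and at 606, 623, 139.6, 104.5 and 397 CPM with EtOH, and was less far below the rest of its group than Slc7a9 in replicates 3 and 4. Of its windows of exon sequence, 23.99% are shared with Prepl on the opposite strand.

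Slc15a1, the proton-coupled carrier of di- and tripeptides, was at 767, 776, 791 and 461 CPM in WT PF mice and at 747, 860, 737 and 581 CPM in fat-1 PF mice. With EtOH it was at 512, 346 and 384 CPM in WT mice and at 391, 534, 8.37, 7.76 and 335 CPM in fat-1 mice. The fat-1 groups did not overlap, and among WT mice only WT PF replicate 4 lay within the EtOH range. The log2 fold change averaged over genotypes was -1.14 (SE 0.66, edgeR adjusted p = 0.191) in 16 mice. With the smaller spread of the 12 mice it was -0.77 (SE 0.17, adjusted p = 0.0059). Within genotypes it was -0.74 in WT mice and -0.81 in fat-1 mice there, and neither was called (adjusted p = 0.0636 and 0.0542).

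Slc1a1, the sodium-coupled carrier of glutamate and aspartate, was higher in every WT EtOH mouse (280, 237 and 268 CPM) than in any WT PF mouse (154, 141, 178 and 209 CPM). In fat-1 mice it was at 140.3, 29.3, 198 and 30.7 CPM with PF and at 244, 245.0, 15.2, 18.8 and 206 CPM with EtOH. Both low PF values belong to the 2 mice with little Slc10a2, and both low EtOH values to fat-1 EtOH replicates 3 and 4. The log2 fold change averaged over genotypes was 0.58 (SE 0.57, edgeR adjusted p = 0.442) in 16 mice and 0.55 (SE 0.12, adjusted p = 0.00679) in 12. Within genotypes of the 12 mice it was 0.62 in WT mice (SE 0.15, adjusted p = 0.0374) and 0.47 in fat-1 mice (SE 0.19, adjusted p = 0.109). Without WT EtOH replicate 2 as well, the WT value was 0.69 and was no longer called (adjusted p = 0.0511). Of its windows, 30.4% are shared with 4430402I18Rik on the opposite strand.

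On the basolateral side, Slc7a7, which exports cationic amino acids in exchange for neutral ones and sodium, was at 401, 424, 414 and 376 CPM in WT PF mice and at 475, 438, 434 and 437 CPM in fat-1 PF mice. It was at 329, 356 and 295 CPM in WT EtOH mice and at 375, 311, 42.2, 44.5 and 268 CPM in fat-1 EtOH mice. All EtOH mice lay below all PF mice, although the highest EtOH and the lowest PF mouse, at 375.2 and 375.7 CPM, were nearly equal. The log2 fold change averaged over genotypes was -0.70 (SE 0.38, edgeR adjusted p = 0.164) in 16 mice and -0.40 (SE 0.10, adjusted p = 0.00992) in 12. Its heavy chain Slc3a2 was between 278 and 596 CPM in PF mice and between 49.4 and 232 CPM in EtOH mice, and fell by 1.62 on the log2 scale in fat-1 mice (SE 0.40, adjusted p = 0.00621). In the fit of 12 mice its log2 fold change in fat-1 mice was -0.92 (SE 0.16, edgeR adjusted p = 0.0128).

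In WT mice, Slc6a14 and Slc1a1 were higher in all EtOH mice than in all PF mice and Slc3a1, Slc7a7 and Slc7a8 lower, where 12.2% and 12.1% of all genes tested were apart in these directions. In fat-1 mice the values were apart for Slc6a14 (higher) and for Slc15a1, Slc7a7, Slc7a8 and Slc36a1 (lower), against 10.6% and 13.4% of genes. Over both genotypes they were apart for Slc7a7 and Slc7a8 (lower), against 4.66% of genes (3.13% were higher). In the fit of 12 mice, 6 of the 10 were called when averaged over genotypes (Slc6a14 and Slc1a1 higher; Slc15a1, Slc7a7, Slc7a8 and Slc36a1 lower), against 27.6% of the genes tested (13.1% higher and 14.4% lower). That fit called 2 in WT mice (Slc1a1 and Slc7a8; 5.68% of genes, 2.48% higher and 3.20% lower), and 3 in fat-1 mice (Slc7a7, Slc7a8 and Slc36a1; 12.1% of genes, 4.36% higher and 7.70% lower). In WT mice, other fits called Slc36a1 (DESeq2 with all mice, 1.86% of genes), Slc1a1 and Slc7a8 (edgeR on the WT groups alone, 8.32%) or Slc6a14, Slc7a8 and Slc36a1 (limma voom with all mice and sample quality weights, 20.7%). Without fat-1 EtOH replicates 3 and 4 alone, edgeR called 1 of the 10 in WT mice (Slc7a8; 2.01% of genes) and 5 in fat-1 mice and on average (Slc15a1 and Slc7a7 besides the 3; 30.8% and 34.9%). The 4 not called on average, Slc6a19, Slc6a20a, Slc7a9 and Slc3a1, in the fit of 12 mice had averaged log2 fold changes between -0.19 and 0.20.

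**Figure D4:**
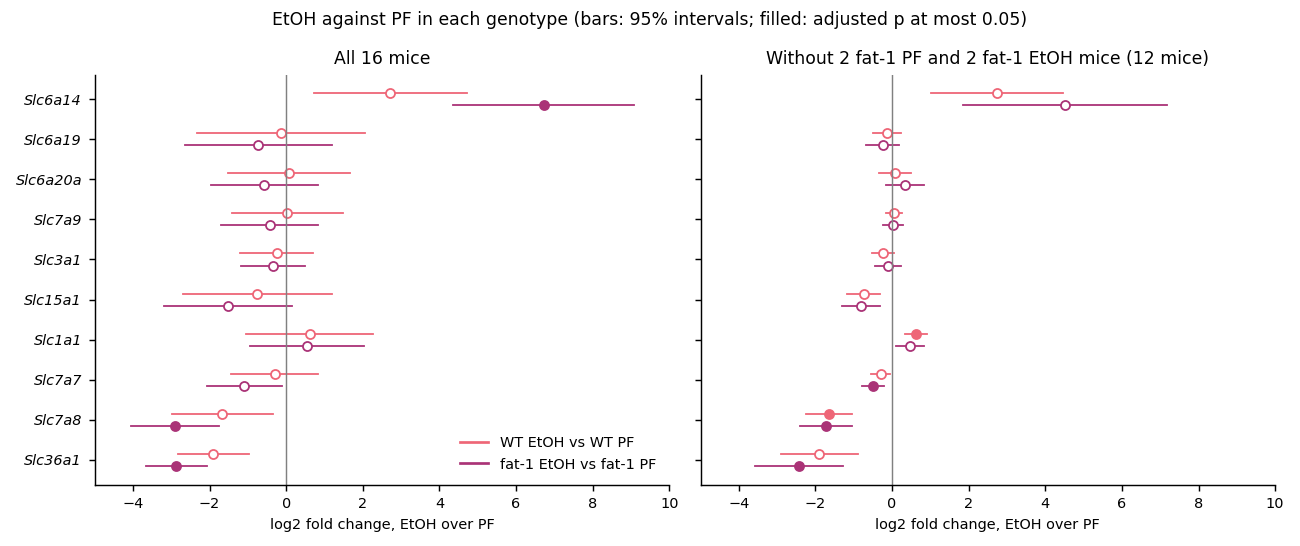
Log2 fold change of EtOH over PF for each transporter in WT and fat-1 mice, from the edgeR fit of all 16 mice and from that of 12 mice without fat-1 PF replicates 2 and 4 and fat-1 EtOH replicates 3 and 4; bars are 95% intervals and filled points have an adjusted p of 0.05 or less. Slc6a14 lies to the right (6.72 in fat-1 mice) and Slc7a8 and Slc36a1 to the left (-2.91 and -2.88), and the bars of the other 7 genes are shorter with 12 mice.

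The genotypes were compared within each diet. Under PF, none of the 10 transporters was called for genotype, as for all genes (0%, with 1758 genes at an unadjusted p under 0.05 in edgeR). The largest difference was in Slc6a14, with means of 45.1 CPM ± 62.6 (SD, n = 4) for WT PF and 3.79 CPM ± 4.79 (n = 4) for fat-1 PF. Its log2 fold change was -3.59 (SE 1.08, edgeR adjusted p = 0.195). Without WT PF replicate 1 it was -1.89, and DESeq2 called it at -3.58 with an adjusted p of 0.0312, where it called 0.123% of genes lower. Slc7a7 was higher in each fat-1 PF mouse (434 to 475 CPM) than in each WT PF mouse (376 to 424 CPM), as were 4.25% of the genes tested (2.62% were lower), with a log2 fold change of 0.14 (SE 0.53, edgeR adjusted p = 0.949). Of the 10, Slc6a19, Slc7a9, Slc3a1 and Slc1a1 were lowest in fat-1 PF replicates 2 and 4 among all PF mice.

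Under EtOH, none of the 10 was called for genotype, and 0.00724% of the genes tested were, or 1, with 671 at an unadjusted p under 0.05. No transporter was apart between these groups, where 1.43% of genes were apart with higher and 1.02% with lower values. The median log2 fold change of the 10 was -0.60, against 0.04 over all genes. It was -0.02 in the fit of 12 mice, against -0.01. For Slc6a14 the difference was 0.41 (SE 0.96) in all mice and turned with 12. In that fit the differences ranged from -1.13 (SE 0.92) for Slc6a14, which was lower in the 3 fat-1 mice left (109 to 182 CPM) than in the 3 WT mice (208 to 357 CPM; 3.35% of genes were apart this way), to 0.18 (SE 0.22) for Slc6a20a, and neither was called.

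Of 37 other amino acid and peptide transporters and partner subunits, 30 passed the filter on low counts. With EtOH in fat-1 mice 10 of them rose and 2 fell, against 18.7% and 18.8% of all genes, and their median log2 fold change was 0.59, against -0.65 for the 10 transporters above. These medians were 0.40 and -0.18 in the fit of 12 mice. Of those called, the largest rises were in Slc1a4 (log2 fold change 1.91, SE 0.56, edgeR adjusted p = 0.0163), a carrier of alanine, serine and cysteine, in Slc36a4 (1.84, SE 0.26, adjusted p = 0.000325), a relative of Slc36a1, and in Slc38a4 (1.47, SE 0.54, adjusted p = 0.0436). Slc38a4 was at most 3.94 CPM in any mouse and near the level of 3 counts in WT PF mice. Those that fell were Slc16a10 (-1.86, SE 0.59, adjusted p = 0.0241), a basolateral carrier of aromatic amino acids, and Slc3a2. Slc36a4 was between 3.65 and 9.04 CPM in PF mice and between 11.3 and 31.4 CPM in EtOH mice, and thus moved the opposite way to Slc36a1. Averaged over genotypes, 9 rose and 1 fell (18.3% and 17.6% of all genes), Slc3a2 being the latter (-1.19, SE 0.30, adjusted p = 0.00876). The largest rises were in Slc38a4 (1.39, SE 0.43, adjusted p = 0.0226), Slc36a4 (1.35, SE 0.19, adjusted p = 0.000342) and Slc1a4 (1.16, SE 0.41, adjusted p = 0.0388). None was called in the other comparisons with all mice. In the fit of 12 mice, Slc36a4 and Slc38a9 rose and Slc3a2, Slc16a10 and Slc43a2 fell in fat-1 mice (12.1% of all genes were called). There neither Slc38a4 (1.41, SE 0.78, edgeR adjusted p = 0.225) nor Slc1a4 (0.13, SE 0.25, adjusted p = 0.744) was called any longer. It also called 3 in WT mice (5.68% of all genes): Slc36a4 (0.86, SE 0.16, edgeR adjusted p = 0.0157) rose, and Slc3a2 (-0.74, SE 0.14, adjusted p = 0.0157) and Slc43a2 (-0.81, SE 0.17, adjusted p = 0.0206) fell. On average it called 6 higher (13.1% of all genes), with the largest rises in Slc6a18 (1.45), Slc7a11 (1.18) and Slc36a4 (1.00), and 4 lower (14.4%), with the largest falls in Slc3a2 (-0.83), Slc16a10 (-0.78) and Slc43a2 (-0.74).

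Ratios to a partner subunit were taken within each mouse. The log2 ratio of Slc7a9 to Slc3a1, in CPM per kb, was -0.47 ± 0.17 (SD, n = 8) in PF mice and -0.75 ± 0.87 (n = 8) in EtOH mice, a difference within the spread between mice (exact two-sided permutation test, p = 0.465, adjusted p = 0.523 over 9 tests). That of Slc7a7 to Slc3a2 was 0.22 ± 0.27 with PF and 0.52 ± 0.40 with EtOH (p = 0.104, adjusted p = 0.234, exact permutation test). In WT mice, both ratios were higher in each EtOH mouse than in each PF mouse, by 0.28 and 0.43 on the log2 scale, with p = 0.0571 for each (adjusted p = 0.171), the smallest that an exact permutation test of 3 against 4 mice can give. In fat-1 EtOH replicates 3 and 4 the ratio of Slc7a9 to Slc3a1 was -2.57 and -1.57, against -0.44 to -0.07 in the other fat-1 EtOH mice. That of Slc7a7 to Slc3a2 (-0.13 and -0.11) was the lowest of the group there too. Without those 2 mice and fat-1 PF replicates 2 and 4, a choice made after seeing the data, EtOH mice were higher by 0.25 and 0.41 (adjusted p = 0.0195 and 0.00974 in exact permutation tests of 6 against 6 mice). The first of these did not pass when fat-1 EtOH replicates 3 and 4 alone were left out, where it was 0.17 (adjusted p = 0.0907, exact permutation test of 6 against 8 mice). Among the fat-1 mice of the 12 it was 0.16 (p = 0.4, exact permutation test of 3 against 2 mice, which cannot give a p under 0.2).

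**Figure D5:**
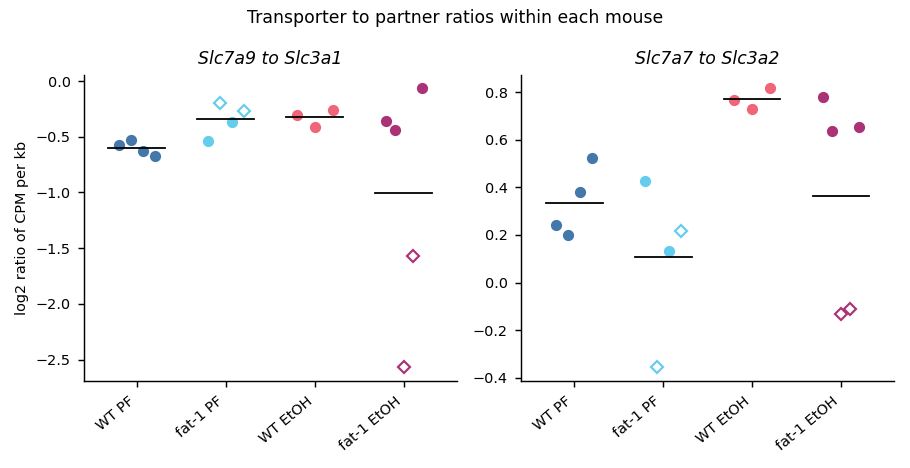
Log2 ratio of a transporter to its partner (CPM per kb of exon) in each mouse, by group, for Slc7a9 to Slc3a1 and Slc7a7 to Slc3a2; lines are group means and open diamonds are fat-1 PF replicates 2 and 4 and fat-1 EtOH replicates 3 and 4. The WT EtOH mice lie above the WT PF mice in both ratios, and the 2 open fat-1 EtOH mice lie lowest of their group.

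Across the 16 mice, which include 4 groups and the 2 mice with very low levels, 6 of the transporters varied together (Slc6a19, Slc6a20a, Slc7a9, Slc3a1, Slc15a1 and Slc7a7, with Pearson's r of log2 CPM between 0.88 and 0.99 for every pair). It was 0.99 between Slc6a19 and Slc7a9 and 0.99 between Slc15a1 and Slc7a7, and was -0.84 between Slc6a14 and Slc7a8. Slc36a1 followed Slc7a8 (r = 0.82) but not Slc1a1 (r = -0.20). In the 12 mice without the 4 named above these 6 did not vary together in the same way: the r of their 15 pairs ran from -0.44 (Slc6a20a with Slc7a7) to 0.78 (Slc15a1 with Slc7a7) and was under 0.2 in 6 pairs. That of Slc6a19 with Slc7a9 was 0.52, whereas that of Slc7a8 with Slc36a1 was 0.92 and that of Slc1a1 with Slc36a1 was -0.84.

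The genes whose log2 CPM was most like that of each transporter over the 16 mice were taken from all genes tested. They were Anpep, Dpp4 and Clca4b for Slc6a19 (r = 0.997, 0.996 and 0.994), the first a membrane aminopeptidase and the next a dipeptidyl peptidase. They were Anpep, Maf and Myrfl for Slc7a9 (0.996, 0.995 and 0.992), Npc1l1 and 2010106E10Rik for Slc15a1 (0.997 and 0.995) and Slc7a15, Slc30a2 and Ggt1 for Slc7a7 (0.995, 0.993 and 0.993). For Slc6a20a they were Abcg8, St3gal4 and Abcg5 (0.970, 0.966 and 0.963), for Slc3a1 Rdh9, Cdh17 and Bcl2l15 (0.983, 0.977 and 0.976), and for Slc1a1 Card9, Naaladl1 and Serpina1b (0.987, 0.986 and 0.982). For Slc7a8 they were Sec14l2, Tmem120a and Ms4a10 (0.991, 0.989 and 0.989), and for Slc36a1 Trim38, Mbl2 and Copb2 (0.962, 0.962 and 0.962). The genes most like Slc6a14 were Hoxb6, Hoxb5 and Hoxb8 (0.950, 0.948 and 0.940), which encode homeobox factors of body position. Over the 12 mice Hoxb6 was still among its 3 nearest genes (0.920), after Lin7b and Tcf4 (0.935 and 0.929), and Slc15a1 kept Npc1l1 (0.977). The other 8 transporters kept none of their 3 nearest genes over the 12 mice, those of Slc6a19 being Ripk4, Pax8 and Slc47a1 there (0.898, 0.888 and 0.855). All these r share the libraries and the differences between groups, and no test was made of them.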

How the data were processed

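RNA-seq counts from the ileum of 16 mice were analysed. The authors aligned reads of 75 bases to mm10 (GRCm38) with tophat2 2.0.13, guided by Ensembl build 82 transcripts, and counted reads per gene with htseq. The deposited values are raw counts, without normalization. The strand setting of the counting is not given in the sources used here, so that reads of genes overlapping on opposite strands may not be told apart. Symbols and exon lengths came from GENCODE M21 (GRCm38). 26 genes of the table are absent from it.

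Counts were analysed with edgeR 4.0.16 in R 4.3.3, with filterByExpr, TMM scaling and a robust quasi-likelihood fit with 1 mean per group. The spread of each gene was estimated over all groups together. p-values were adjusted over all genes tested (Benjamini-Hochberg) and called at 0.05. Where nothing else is said, adjusted p-values are from this test. Each mouse was 1 sample, the SD is between mice, and no mice of a group agreed within sampling noise. log2 CPM for correlations used a prior count of 2. Ratios were tested on log2 values with a pseudocount of 0.5 CPM by exact permutation over mice with scipy 1.17.1. The fit was also run on simulated counts, whose outcome is not given. Alternatives were DESeq2 1.42.0, limma 3.58.1 (voom with sample quality weights, which weight each library), other scalings and filters, the groups compared alone, a replicate block and leaving out mice, for 30 settings of the gene-wise fit in all. The 10 transporters, the lists of other transporters and of markers, the rule for naming genes (the members, the 3 other transporters called with the largest change in each direction, and the 3 genes most like each member) and the tests were chosen with earlier results of these data known. Proteins are not shown, and 1 partner gene, with its ratio among the 9 tests, is not reported here. Figures were drawn with matplotlib 3.10.9.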

Additional observations from a re-analysis of the deposited data

Results flagged for a closer look

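Of 30 tests for a mouse far from its group (Dixon's test on log2 CPM, groups of 4 or 5 mice), 2 passed the limit, and chance passes about 1 in 20. The test looks for 1 mouse at a time, so that 2 mice far off together can hide each other. Slc6a19, at 9.51 and 11.42 CPM in fat-1 EtOH replicates 3 and 4, was such a case. Slc15a1 was at 461 CPM in WT PF replicate 4, below the 767 to 791 CPM of the other WT PF mice, with a gap of 0.943 of the range. The same mouse had the lowest Slc7a8 and Slc36a1 and the lowest sum of proximal small intestine genes (2422 CPM) of the PF mice, and the part of this in the value was not tested. Slc7a7 was at 475 CPM in fat-1 PF replicate 1, above the 434 to 438 CPM of the other fat-1 PF mice, with a gap of 0.899 of a narrow range.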

How the results depend on the processing

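Slc36a1 and Slc7a8 were called in fat-1 mice and averaged over genotypes under every scaling, filter, test and set of mice left out that was run. So was Slc6a14, except that it was not tested with a filter of 10 counts in every mouse and was not called in fat-1 mice with 12 and 11 mice (edgeR adjusted p = 0.0583 and 0.069). Of the transporters DESeq2 called 1 between PF groups (Slc6a14) and 1 in WT mice (Slc36a1), and in WT mice voom called 3 and the fit of the WT groups alone 2. Leaving out 1 mouse gave 0 to 1 in WT mice (1 without WT PF replicate 4, Slc36a1, with 66 of 13784 genes called) and 3 to 4 in fat-1 mice (4 without fat-1 EtOH replicate 1, adding Slc7a7, with 5227 of 13778 genes). Leaving out fat-1 EtOH replicates 3 and 4 gave 1 in WT mice and 5 in fat-1 mice and on average, and without WT EtOH replicate 2 too (13 mice) 5 and 5, with 4096 and 4534 genes, but 0 in WT mice, where Slc7a8 was at an edgeR adjusted p of 0.0965. Without fat-1 PF replicates 2 and 4 too (12 mice), 2 were called in WT mice and 6 on average, and 1 and 6 without WT EtOH replicate 2 as well (11 mice, with 468 and 3781 of 13716 genes). The fits of 12 and 11 mice were chosen after seeing the data. The cause of these moves was not tested.

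Signs turned in the following log2 fold changes, none of which was called. Between PF groups, Slc6a19 was at 0.098, 0.095 and 0.095, Slc7a9 at 0.020, 0.016 and 0.016 and Slc6a20a at -0.068, -0.072 and -0.072 without fat-1 PF replicates 2 and 4, with 12 and with 11 mice. With voom, Slc6a20a was at -0.029 and Slc15a1 at -0.028 there. With 1 mouse left out, the ranges there were -0.30 to -0.046 for Slc6a19, -0.364 to -0.128 for Slc7a9, -0.259 to 0.343 for Slc6a20a and -0.090 to 0.153 for Slc15a1. In WT mice, Slc6a20a turned to -0.012 and -0.049 without WT EtOH replicates 1 and 3, in a range of -0.049 to 0.225 with 1 mouse left out. It kept its sign with 11 mice (0.235). Slc7a9 kept its sign with 1 mouse left out (0.008 to 0.058) and turned with the replicate block given below. In fat-1 mice without fat-1 EtOH replicates 3 and 4, and without WT EtOH replicate 2 too, Slc6a19 was at 0.027 and 0.025, Slc6a20a at 0.138 and 0.138, Slc7a9 at 0.272 and 0.271 and Slc3a1 at 0.220 and 0.219. With 12 and 11 mice Slc6a20a was at 0.327 and Slc7a9 at 0.020. Slc3a1 was at 0.069 with voom, and Slc1a1 at -0.206 without fat-1 PF replicates 2 and 4. With 1 mouse left out, the ranges in fat-1 mice were -1.122 to -0.397 (Slc6a19), -1.027 to -0.169 (Slc6a20a), -0.705 to -0.119 (Slc7a9), -0.604 to -0.088 (Slc3a1) and 0.258 to 1.137 (Slc1a1). On average, Slc6a20a was at 0.101, 0.181, 0.199 and 0.281 and Slc7a9 at 0.154, 0.162, 0.031 and 0.042 in the fits of 14, 13, 12 and 11 mice, against -0.483 to -0.051 and -0.333 to -0.039 with 1 mouse left out. Between EtOH groups, Slc6a14 was at -0.684 with voom, at -1.126, -1.047, -1.130 and -1.055 in those 4 fits, and between -0.033 and 0.648 with 1 mouse left out. With 12 mice Slc6a20a, Slc7a8 and Slc15a1 turned there too, from -0.492, -0.524 and -0.698 to 0.184, 0.074 and 0.012, and in the interaction Slc6a20a and Slc3a1 turned from -0.640 and -0.091 to 0.256 and 0.126. With 14, 13 or 11 mice further signs turned in these comparisons, Slc3a1 and Slc7a7 between EtOH groups (to at most 0.010 and 0.025) and Slc6a19, Slc7a9 and Slc1a1 in the interaction (to at most 0.158, 0.237 and 0.616). The ratio of Slc7a9 to Slc3a1 turned to 0.166, 0.187 and 0.246 with 14, 13 and 12 mice, and passed with 12 mice, not with 14 or 13. That of Slc7a7 to Slc3a2 passed at 0.508, 0.508 and 0.412 (adjusted p = 0.003, 0.00699 and 0.00974 in exact permutation tests). With 1 mouse left out, the ratios ranged from -0.373 to -0.015 and from 0.213 to 0.388.

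Same-numbered mice were not more alike (mean r of deviations -0.0225 over 21 pairs, against 0.00703 over 74), so that no pairing by number was seen. The labels state no pairs. A pairing by feeding or litter is not in them and was not tested. With a replicate block the count of transporters called was 3 in fat-1 mice, 3 on average and 0 elsewhere, with 4748 and 4836 of all genes in the first 2, Slc6a20a turned to -0.089 between PF groups and, in WT mice, it and Slc7a9 to -0.301 and -0.237. With upper-quartile scaling all genes had a median of 0.203 on the log2 scale in fat-1 mice (0.054 with TMM), with 3906 genes higher and 1753 lower in place of 2578 and 2592. On average these were 3643 and 1699 in place of 2522 and 2433. Of all genes, 11 were called in WT mice, but 257 by DESeq2, 2853 by voom, 1103 with the WT groups alone, 18 with the block, 2 without the filter, and 273, 26, 781 and 468 with 14, 13, 12 and 11 mice. With at least 10 counts in every mouse edgeR called 0 there, with 1718 at an unadjusted p under 0.05. In fat-1 mice 5170 were called, but 3086 with the fat-1 groups alone, 1965 without fat-1 PF replicates 2 and 4, and 1659 and 1626 with 12 and 11 mice. Depth limits Slc6a14 most, whose lowest level rests on 5 reads.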
